A study of Drosophila melanogaster with 8 samples.

Results

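The 73 genes described here carry names that begin with mRpL or mRpS followed by a digit, the fly symbols for proteins of the large and the small subunit of the mitochondrial ribosome. They were taken by name from the gene tables, 47 large-subunit and 26 small-subunit names among 17868 genes. All 73 had reads in every library and passed the filter on low counts, as did 9999 genes in all. The mitochondrial ribosome translates the few messenger RNAs made from mitochondrial DNA, which encode core subunits of the respiratory chain and of ATP synthase. Its RNAs come from the mitochondrial genome, whereas its proteins are encoded in the nucleus, made in the cytoplasm and imported. Some of these proteins have counterparts in bacterial ribosomes and others occur in mitochondria only. Neurons depend on this machinery because much of their ATP comes from oxidative phosphorylation.

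The libraries held polyadenylated RNA of clock neurons that had been sorted from brains of adult flies, 2 libraries at each of the circadian times (CT) 0, 6, 12 and 18 h. All 8 libraries had the genotype ClkGAL4, UAS-GFP-NLS/UAS-mor-RNAi, so every group carried RNA interference against mor, a subunit gene of the Brahma chromatin remodelling complex, and no control genotype was analysed here. Clk-GAL4 is active across the network of clock neurons, so each library mixed several kinds of these cells. After entrainment to light-dark cycles the flies were taken on the second day of constant darkness, and cells that were positive for nuclear GFP and negative for DAPI were collected. CT0 and CT6 are the start and the middle of the subjective day, and CT12 and CT18 the start and the middle of the subjective night. The labels do not say what replicates with the same number shared, and give no age. All p-values therefore reflect the spread between these particular libraries, which may be technical.

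Total estimated counts ran from 15006258 (CT12 replicate 2) to 29346348 (CT0 replicate 1). Neuronal markers were present in all libraries (elav 26.4 to 63.1 TPM, nSyb 703 to 1240.3 TPM). The glial gene repo did not exceed 0.261 TPM, whereas Gs2 and nrv2, also on the glial list, had means of 50.8 and 60.9 TPM. The muscle gene Mhc was listed at 0 throughout. Summed over the 7 glial markers the level was 84.4 to 207 TPM, and over the 7 photoreceptor markers 22.5 to 288 TPM. Over 6 hemocyte markers it was 28.2 to 74.9 TPM. Over 6 Kenyon cell markers it was 584 to 1149 TPM, with a mean of 732 TPM for sNPF alone. CT6 replicate 1 stood apart from the other libraries: the neuropeptide transcript Pdf was at 292 TPM there and between 4590 and 93400.3 TPM elsewhere, and mor was highest there (21.8 CPM, against 4.14 to 13.2 CPM). The counts of each library also followed transcript length to a different degree. Across the 5766 tested genes whose mean log2 CPM was 4 or more, the Spearman correlation of the deviation from the gene's mean with effective length was 0.684 in CT6 replicate 1, 0.412 in CT0 replicate 2 and 0.468 in CT12 replicate 2. It was between −0.114 and −0.342 in CT0 replicate 1, CT6 replicate 2 and CT12 replicate 1, and −0.533 and −0.563 in the pair of CT18 libraries. Mitochondrial ribosomal transcripts are short, with a median effective length of 501 bases against 1607 over all tested genes, so the main comparisons are given with and without this trend. The trend was removed as a lowess curve (span 0.3) fitted per library to the same 5766 genes.

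Transcripts of the mitochondrial ribosome were abundant and lay close together in level. Levels between genes are compared here in TPM, which is per length. The median of the 73 mean levels was 107.9 TPM, against 13.8 TPM over all tested genes, and 69.5% of tested genes lay below the lowest of the 73. Mean levels between 50 and 200 TPM were found for 65 of the 73, and the highest was 9.82 times the lowest. Over the 8 libraries, the coefficient of variation of a gene's TPM had a median of 18.8%, from 9.05% for mRpL16 to 39.5% for mRpL34.

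At the top stood mRpS5, a small-subunit protein with a bacterial counterpart, with a mean of 394 TPM, 1.75 times the next gene. Its levels were 407 and 344 TPM at CT0, 367 and 366 TPM at CT6, 452 and 333 TPM at CT12, and 591 and 296 TPM at CT18. The CT18 pair thus held both its highest and its lowest value, so the spread at that time exceeded every difference between times. It was followed by mRpS18A (226 TPM), mRpL24 (215 TPM), a protein at the exit of the tunnel through which the new chain leaves, and mRpL50 (204 TPM), which occurs in mitochondria only. The lowest means were those of mRpS30 (40.2 TPM), mRpS22 (47.2 TPM), mRpL34 (47.3 TPM) and mRpL11 (48.8 TPM). For mRpS30 the single libraries ran from 29.6 TPM (CT6 replicate 2) to 48.2 TPM (CT18 replicate 2), and those of mRpS22 (38.4 to 56.1 TPM) and mRpL34 (26.4 to 74.0 TPM) overlapped them, so the order at the bottom did not exceed the spread between libraries.

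**Figure D1:**
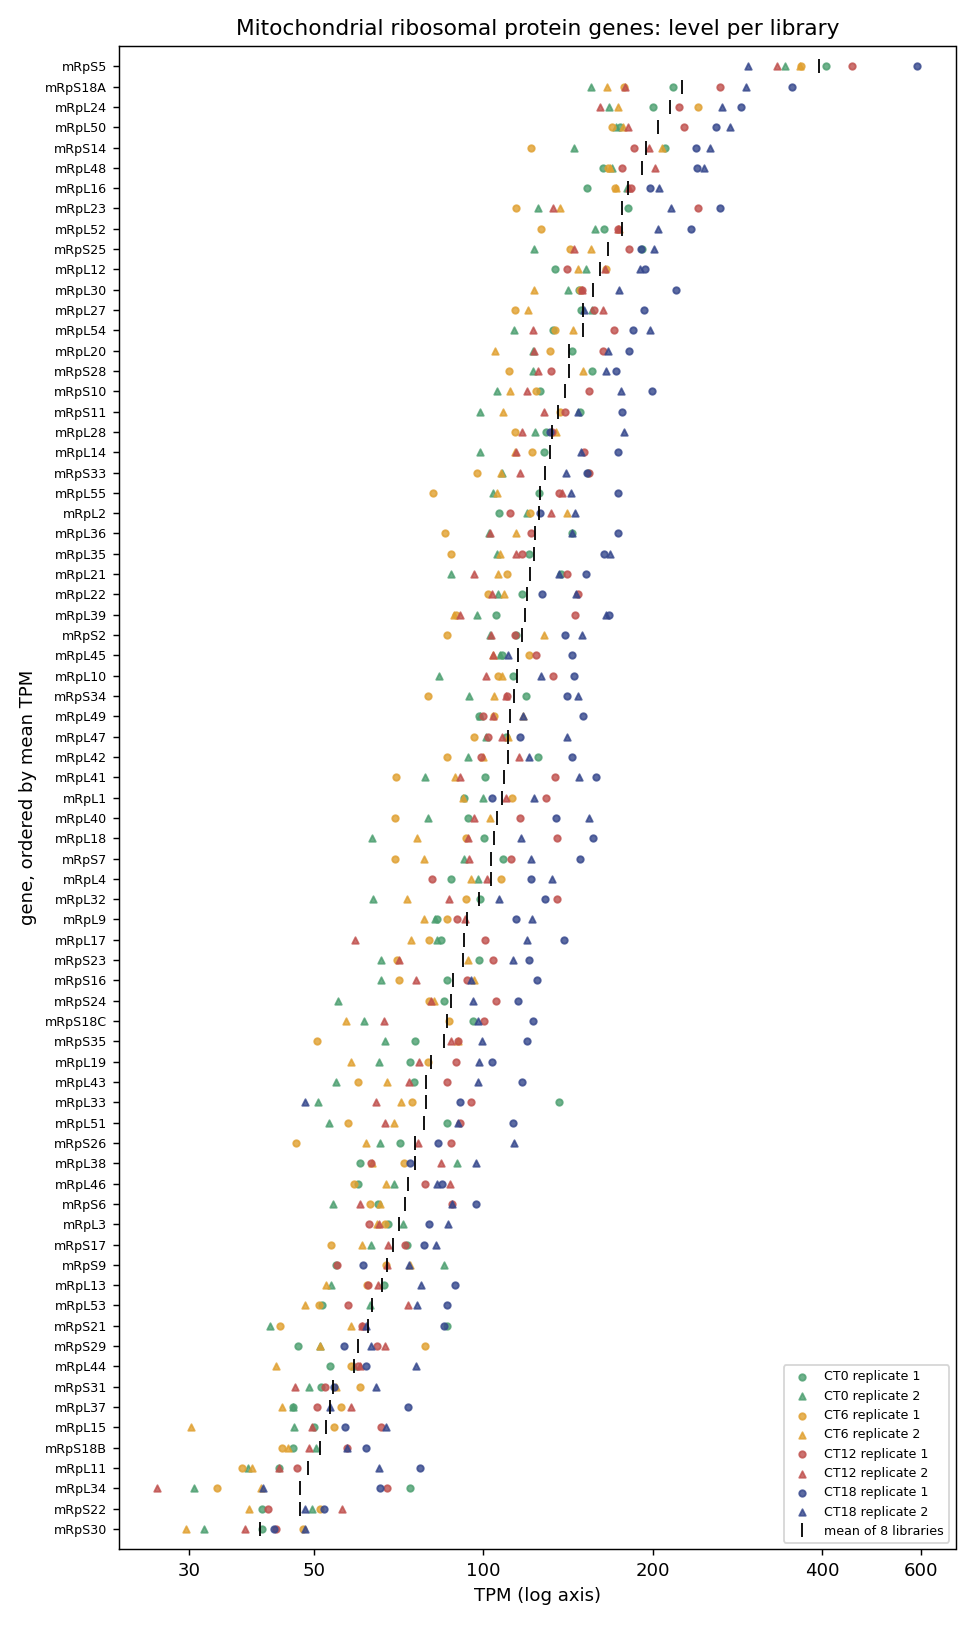
Level of each of the 73 genes in TPM (log axis), one row per gene ordered by mean; colour gives the circadian time, circles and triangles replicates 1 and 2, and the black tick the mean of 8 libraries. The genes form a narrow band from 40.2 TPM (mRpS30) to 226 TPM (mRpS18A), with mRpS5 above it at 394 TPM.

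Grouped by the subunit in the gene name, the large-subunit genes had a median of mean levels of 110.7 TPM and the small-subunit genes 88.1 TPM. Large-subunit proteins of bacterial type had a median of 114.7 TPM (29 genes) and those found only in mitochondria 109.7 TPM (18 genes). Among the small-subunit names the corresponding medians were 95.9 TPM (14 genes) and 80.4 TPM (12 genes). These 12 include mRpS18A and mRpS18B, relatives of a bacterial protein that are listed here as mitochondrial forms. They also include mRpS30, the lowest at 40.2 TPM, whose mammalian counterpart sits in the large subunit. By position in the large subunit, known from structures in other species, medians were 111 TPM for the 4 proteins of the stalks, 117 TPM for 8 proteins around the polypeptide exit, 106 TPM for 7 proteins of the central protuberance and 114 TPM for 4 proteins near the peptidyl transferase centre. No difference between these groups was tested. Within the stalks, which recruit and activate the translation factors, mRpL11 (48.8 TPM) was lower than mRpL12 (161 TPM) in every library.

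The family related to the bacterial protein S18 has 3 members, which in mammals occupy different places in the ribosome. The level of mRpS18A was 217 and 155 TPM at CT0, 178 and 166 TPM at CT6, 264 and 179 TPM at CT12, and 353 and 293 TPM at CT18. For mRpS18C it was 96.0 and 61.5 TPM at CT0, 87.1 and 57.0 TPM at CT6, 100.4 and 66.7 TPM at CT12, and 123 and 98.1 TPM at CT18. For mRpS18B it ran from 44.0 TPM (CT6 replicate 1) to 62.0 TPM (CT18 replicate 1). The order of mRpS18A over mRpS18C over mRpS18B held in every library, with means of 226, 86.2 and 51.4 TPM.

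Library by library, most of the 73 genes shifted in the same direction in some libraries and were divided in others. The median deviation from the gene's own mean, in log2 CPM, was 0.12 and −0.17 in the CT0 libraries, −0.43 and −0.03 in those of CT6, 0.07 and −0.22 in those of CT12, and 0.34 and 0.33 in those of CT18. In CT18 replicates 1 and 2, 66 and 70 of the 73 genes were above their own mean, against 2 in CT6 replicate 1. The number was 57 and 9 in the CT0 libraries, 29 in CT6 replicate 2, and 46 and 7 in the CT12 libraries. The share of all tested genes above their own mean was not counted. Over all tested genes the median deviation was 0.02 in CT6 replicate 1 and in both CT18 libraries. The lowest value of a gene fell in CT6 replicate 1 for 47 of the 73. The highest fell in one of the CT18 libraries for 59 of the 73 (29 and 30). How often this was so over all tested genes was not counted. As a share of all estimated counts, the 73 genes made up 0.438% and 0.362% in the CT0 libraries, 0.32% and 0.404% in those of CT6, 0.456% and 0.379% in those of CT12, and 0.555% and 0.538% in those of CT18. In sorted bulk RNA, fewer cells of a type and less RNA per cell cannot be told apart.

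At the extremes these shifts went with the length trend of the libraries. The library with the strongest bias towards long transcripts, CT6 replicate 1, was the lowest for these genes. The CT18 libraries, with the strongest bias towards short ones, were the highest. The order between them did not match throughout. CT6 replicate 2 had a stronger bias towards short transcripts than CT12 replicate 1 (−0.223 against −0.114) but the lower median (−0.03 against 0.07). A link between trend and shift was not tested. Within the 73 genes themselves the correlation with length was 0.49 in CT6 replicate 1, −0.456 in CT18 replicate 1 and 0.122 in CT18 replicate 2. After each library's trend was removed, the median deviations were −0.03 and −0.00 in the CT0 libraries, −0.04 and −0.09 in those of CT6, 0.06 and −0.05 in those of CT12, and 0.07 and 0.12 in those of CT18. The pair of CT18 libraries was still the highest of the 8 and the pair of CT6 libraries held the lowest value, over a range narrower than before. In CT18 replicates 1 and 2, 46 and 60 of the 73 genes were then above their own mean, and 43 in CT12 replicate 1. Over all tested genes the median deviation was then 0.007 and 0.009 in the CT18 libraries and 0.02 in CT12 replicate 1. The highest value then fell in one of the CT18 libraries for 33 of the 73 genes (12 and 21), again without a count over all tested genes.

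**Figure D2:**
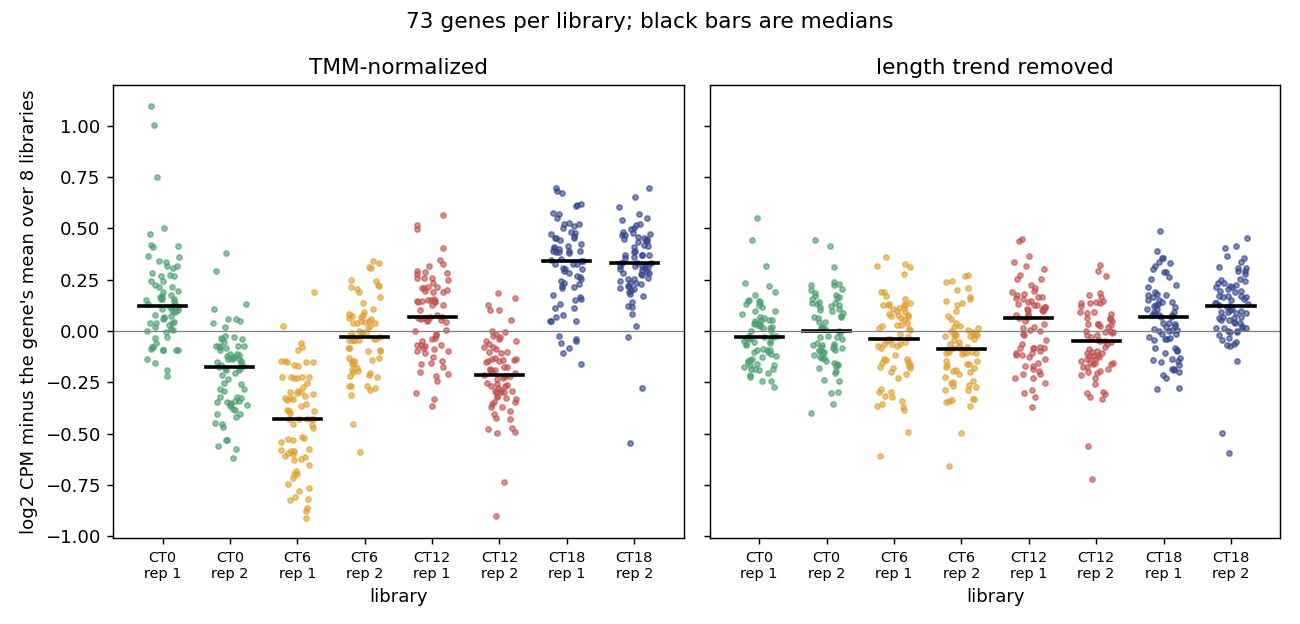
Deviation of each of the 73 genes from its own mean over 8 libraries (log2 CPM, points) and the median (black bars) per library, as TMM-normalized values (left) and with each library's length trend removed (right). On the left the medians run from −0.43 in CT6 replicate 1 to 0.34 in CT18 replicate 1; on the right they lie between −0.09 and 0.12.

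Duplicates of the same time differed less for these genes than for all tested genes, as a description that is not matched for level. The 73 genes were more abundant (median 107.9 TPM against 13.8 TPM), and no comparison with genes of similar level was made. The SD between duplicates had a median of 0.29 log2 units over the 73 genes and 0.42 over all tested genes, and of 0.18 and 0.37 with the length trend removed. The genes with the largest spread were mRpL34 (0.80), mRpL33 (0.69) and mRpS21 (0.52), which encode small ribosomal proteins and are also the shortest of the 73, with effective lengths of 126, 129 and 187 bases. Those of the smallest spread were mRpL12 (0.09), mRpL30 (0.12) and mRpS29 (0.12). The smallest count of any of the 73 genes in a library was 43, for mRpL34 in CT12 replicate 2, and 72 of the 73 had at least 100 counts in every library.

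The middle of the subjective night was compared with the middle of the subjective day, CT18 minus CT6, and most of the 73 genes had the higher value at CT18, although none passed the test. Of the 73, 70 had a higher value at CT18, against 48.4% of all tested genes, and the median difference was 0.54 log2 units, against −0.02 over all genes. Differences ran from −0.05 to 1.00. For 57 of the 73, both CT18 libraries were above both CT6 libraries, against a background of 20.1% of all tested genes, and for 0 below them, against 21.6%. For 35 the CT18 libraries were the highest pair of all 8 libraries, against 7.29%. A difference above 0.5 was found for 43, against 18.6%. By the quasi-likelihood test of edgeR, with Benjamini-Hochberg adjustment over all genes, 0 of the 73 and 0 of the 9999 passed (background 0%, smallest adjusted p = 0.51 among the 73). At an unadjusted p under 0.05 there were 20 of the 73, all higher at CT18, against 9.65% of all genes in either direction and 2.76% in that direction.

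The target of the RNA interference, mor, was itself lowest in the CT18 libraries, at 4.14 and 4.41 CPM against 7.90 to 21.8 CPM in the other 6, and at 5.06 and 5.37 CPM against 8.32 to 15.9 CPM with the length trend removed. Its part in the difference was not tested.

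The size of this difference depended on CT6 replicate 1. Without that library the median was 0.35 log2 units and 69 of the 73 were higher at CT18, while the number with an unadjusted p under 0.05 went from 20 to 1 (background 3.72%). Without CT6 replicate 2 the median was 0.73 and that number 31 (background 18.3%). Without CT18 replicate 1 the median was 0.54 and the number 6 (4.54%), and without CT18 replicate 2 they were 0.57 and 9 (7.18%). The lone library of a time was assumed in these fits to vary like the other times.

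With the length trend removed, the difference between CT18 and CT6 was lower for 72 of the 73 genes. The median was then 0.14 log2 units (−0.02 over all genes), and 60 of the 73 remained higher at CT18, against 47.6% of all genes. Another 10 changed from higher to lower, and 3 were lower either way (mRpS29, mRpS9 and mRpL33). Both CT18 libraries were above both CT6 libraries for 27 of the 73, against 17.1% of all genes, and below them for 3, against 19.1%. A difference above 0.5 was found for 7, against 14.9%. Both CT18 libraries were the highest pair of the 8 for 8 genes, against 3.86%: mRpL11, mRpL17, mRpL19, mRpL35, mRpL39, mRpL43, mRpS10 and mRpS18A. In edgeR 0 of the 73 passed (smallest adjusted p = 0.78), and 5 had an unadjusted p under 0.05, against 6.13% of all genes. All 5 were higher at CT18, against 2.68%. Without CT6 replicate 1 the median with the trend removed was 0.17 (58 of 73 higher), and over the other libraries left out in turn it ran from 0.09 without CT18 replicate 2 (52 higher) to 0.18 without CT18 replicate 1 (58 higher).

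Short transcripts over all tested genes, the 73 included, differed in the same direction. Among all tested genes, the median CT18 minus CT6 difference was 0.39 log2 units at effective lengths up to 400 bases, 0.37 from 400 to 700, 0.28 from 700 to 1100, 0.02 from 1100 to 2000 and −0.40 above 2000. Within the 73 genes, the shorter 37 had a median difference of 0.59 and the longer 36 of 0.43, and with the trend removed these were 0.14 and 0.12. The Spearman correlation between difference and effective length was −0.44 over the 73 genes and −0.40 over all genes, as descriptions across genes that share libraries, and −0.14 and 0.03 after removal. How far the remaining median reflects time of day rather than what the curve left behind was not tested.

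**Figure D3:**
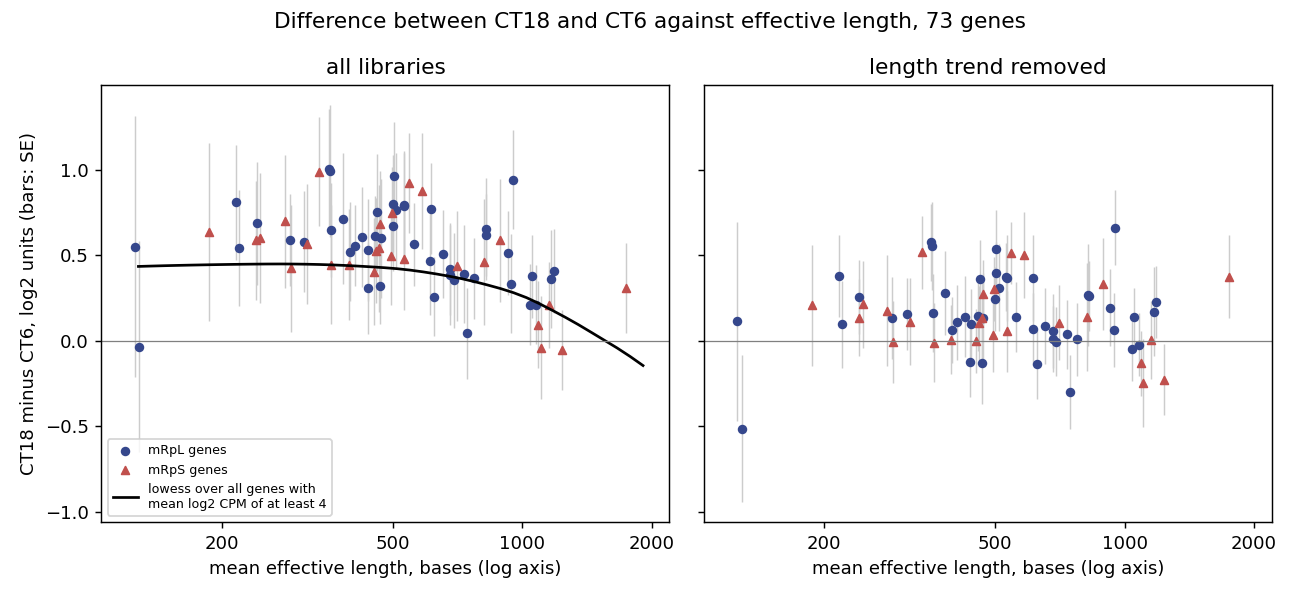
CT18 minus CT6 difference in log2 units (points, bars give SE) against mean effective length in bases (log axis) for 47 mRpL and 26 mRpS genes, before (left) and after (right) the length trend was removed; the black line is the lowess curve over all genes whose mean log2 CPM was 4 or more. On the left most genes lie above the curve for all genes, with a median of 0.54; on the right they gather around a median of 0.14, with mRpL39 highest at 0.66 and mRpL33 lowest at −0.51.

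The 5 genes with the smallest p in this comparison with the trend removed came from both subunits, and 4 of them were also among the 5 smallest before it was removed (mRpL39, mRpS7, mRpS18A and mRpL11). First among them was mRpL39 (FBgn0036462, 3L:14997981-14999666, minus strand), a protein found in mitochondrial ribosomes only, located near the polypeptide exit in mammals. Its TMM-normalized levels were 103 and 88.4 CPM at CT0, 67.2 and 89.0 CPM at CT6, 125 and 75.9 CPM at CT12, and 145 and 155 CPM at CT18. The CT18 libraries were the highest pair, and the others overlapped. The difference CT18 minus CT6 was 0.94 ± 0.29 (SE) log2 units, and 0.66 ± 0.22 with the length trend removed (edgeR adjusted p = 0.51 and 0.78). With the trend removed its levels were 81.6 and 84.8 CPM at CT6 and 128 and 135 CPM at CT18, while CT12 replicate 1, at 125 CPM, was close to the CT18 pair. Without any one library the untreated difference stayed between 0.75 and 1.16.

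The gene mRpS7 (FBgn0032236, 2L:10386662-10387652, plus strand) encodes a protein of the head of the small subunit that is conserved from bacteria. Its levels were 62.2 and 48.1 CPM at CT0, 29.8 and 43.9 CPM at CT6, 56.8 and 44.1 CPM at CT12, and 75.0 and 64.5 CPM at CT18. Here CT18 was highest and CT6 lowest, with no overlap between CT6 and any other time. The difference was 0.92 ± 0.29 log2 units, and 0.51 ± 0.18 with the trend removed (edgeR adjusted p = 0.51 and 0.78). After removal the CT6 libraries, at 39.2 and 42.0 CPM, were still the lowest pair of the 8, but the CT18 libraries, at 61.5 and 54.4 CPM, overlapped those of CT0, at 56.1 and 55.4 CPM.

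For mRpL41 (FBgn0034001, 2R:15217024-15217617, minus strand), another protein found only in mitochondrial ribosomes, levels were 38.7 and 27.3 CPM at CT0, 19.7 and 31.7 CPM at CT6, 44.1 and 27.3 CPM at CT12, and 51.4 and 51.5 CPM at CT18. The CT18 libraries were nearly equal and above all others. With the trend removed they were at 41.4 and 44.3 CPM, and CT12 replicate 1, at 41.8 CPM, lay between them. The difference of 1.00 ± 0.35 log2 units was the largest of the 73, and it was 0.58 ± 0.23 with the trend removed (edgeR adjusted p = 0.51 and 0.78). Without CT6 replicate 1 it was 0.70 before removal, the lowest value over the libraries left out in turn.

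Of the S18 family, mRpS18A (FBgn0051450, 3R:8561917-8562593, minus strand) had 79.0 and 51.0 CPM at CT0, 47.5 and 55.8 CPM at CT6, 82.8 and 50.6 CPM at CT12, and 109 and 96.3 CPM at CT18. The CT18 pair was highest, both before and after removal of the trend. Its difference was 0.99 ± 0.32 log2 units, and 0.52 ± 0.21 after removal (edgeR adjusted p = 0.51 and 0.78). The paralogs had smaller differences with larger errors relative to them: mRpS18C 0.70 ± 0.39, and 0.18 ± 0.33 after removal, and mRpS18B 0.48 ± 0.30, and 0.06 ± 0.24 after removal. Whether the paralogs differ from one another in this comparison was not tested.

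In the stalk region, mRpL11 (FBgn0038234, 3R:14511838-14512691, plus strand), which lies at the base of the stalk where translation factors bind, had 23.2 and 18.6 CPM at CT0, 14.8 and 20.0 CPM at CT6, 21.6 and 18.7 CPM at CT12, and 35.6 and 32.3 CPM at CT18. The CT18 libraries stood above the other 6, which overlapped. With the trend removed the other 6 lay between 19.2 and 21.6 CPM and the CT18 pair at 29.1 and 27.2 CPM. The difference from CT6 was 0.96 ± 0.32 log2 units, and 0.54 ± 0.23 after removal (edgeR adjusted p = 0.51 and 0.78). By contrast mRpL12 (FBgn0011787, 3L:8956791-8957584, plus strand), the mobile stalk protein, had 65.4 and 68.3 CPM at CT0, 62.9 and 70.8 CPM at CT6, 60.3 and 66.0 CPM at CT12, and 80.8 and 86.3 CPM at CT18. Its CT18 libraries were also the highest pair, and the difference from CT6 was 0.32 ± 0.23. With the trend removed the sign turned, to −0.13 ± 0.23, and the times overlapped.

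**Figure D4:**
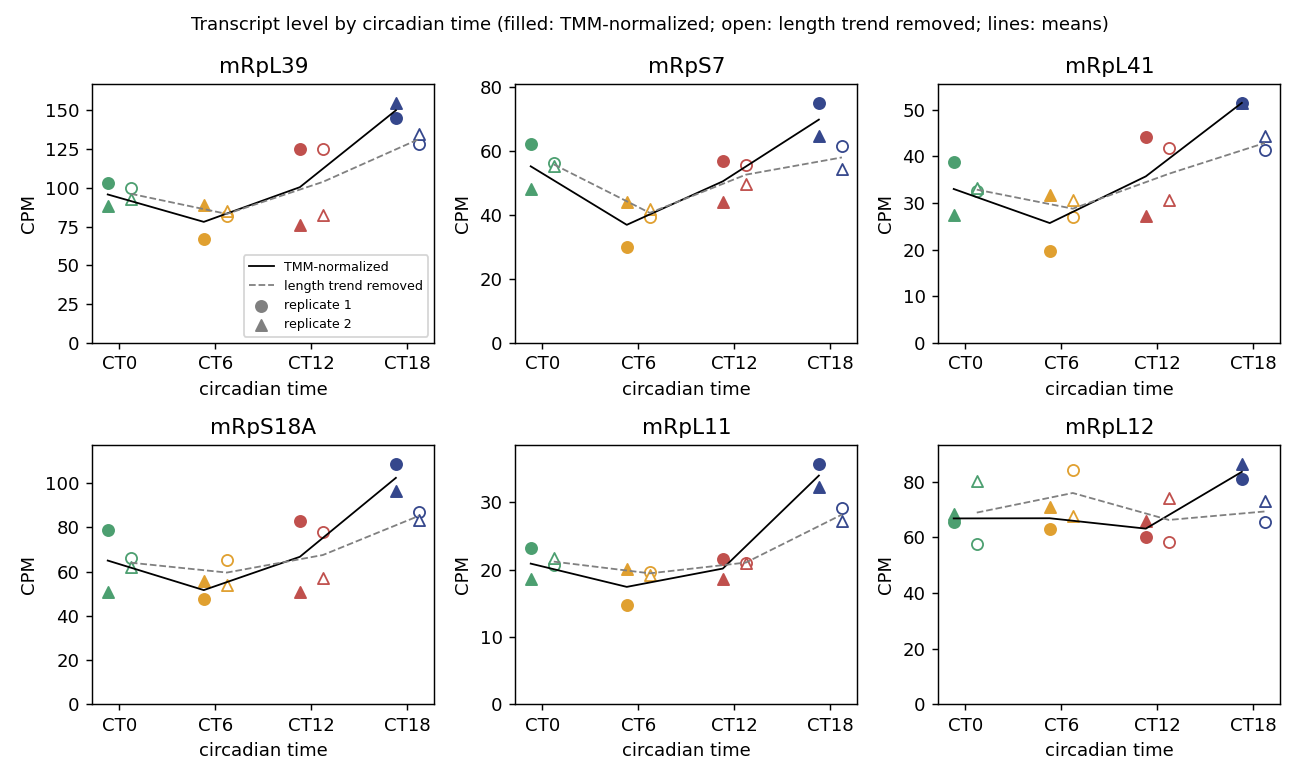
Levels in CPM of 6 genes by circadian time, as TMM-normalized values (filled, solid line through the means) and with the length trend removed (open, dashed line); circles and triangles are replicates 1 and 2. In mRpL11 the CT18 libraries stay above the other times either way (29.1 and 27.2 CPM after removal), whereas in mRpL12 they no longer stand apart.

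Subunits were taken from gene names here. By role, the CT18 minus CT6 difference before removal was positive for 46 of 47 large-subunit genes (median 0.56 log2 units). For small-subunit genes it was positive for 24 of 26 (median 0.51). With the trend removed it was positive for 39 and 21 of them, in that order (medians 0.14 and 0.12). Among large-subunit proteins found only in mitochondria it was positive for 18 of 18 (median 0.57, and 0.21 after removal, with 16 of 18 positive). For large-subunit proteins of bacterial type it was positive for 28 of 29 (median 0.55, and 0.13 after removal, with 23 of 29). In the small subunit it was positive for 13 of 14 genes of bacterial type (median 0.51, and 0.11 after removal) and 11 of the 12 others (median 0.51, and 0.14 after removal). The 7 genes of the central protuberance, where both subunits meet, were all higher at CT18 before and after removal (medians 0.58 and 0.16). At the polypeptide exit 8 of 8 were higher (0.51) and 6 of 8 after removal (0.14). The 4 stalk genes were all higher before removal and 2 of 4 after (medians 0.35 and −0.02), and so were the 4 genes near the peptidyl transferase centre (4 and 2 higher, medians 0.31 and −0.06). Differences between these groups were not tested.

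Other genes with small p in the comparison included mRpL53 (0.77 ± 0.27 log2 units, and 0.37 ± 0.25 with the trend removed), a large-subunit protein found only in mitochondria, and mRpS10 (0.75 ± 0.27, and 0.30 ± 0.19), a head protein of the small subunit. Both had CT18 libraries above all others before removal: mRpL53 at 48.4 and 46.1 CPM over a range of 24.7 to 38.9 CPM, and mRpS10 at 90.9 and 85.9 CPM over 48.6 to 70.7 CPM. Among the most abundant genes the difference was 0.67 ± 0.26 for mRpL50 and 0.51 ± 0.26 for mRpL24, and 0.24 ± 0.19 and 0.09 ± 0.22 after removal. For mRpS5 it was 0.46 ± 0.37, and 0.14 ± 0.32 after removal, with 214 and 310 CPM at CT6 and 477 and 243 CPM at CT18, which overlapped. That value rested on CT18 replicate 1, without which it was −0.10.

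At the other end, 3 genes had no higher level at CT18 with or without the trend. The gene mRpS29, which encodes a GTP-binding small-subunit protein (DAP3 in mammals), had 58.8 and 60.0 CPM at CT0, 78.1 and 67.7 CPM at CT6, 71.7 and 73.5 CPM at CT12, and 63.6 and 77.0 CPM at CT18. CT6 and CT18 overlapped, and the difference was −0.05 ± 0.23 log2 units, and −0.23 ± 0.21 after removal. For mRpS9, whose bacterial counterpart reaches the peptidyl site of the small subunit, levels were 59.0 and 86.7 CPM at CT6 and 61.6 and 80.1 CPM at CT18, a difference of −0.04 ± 0.30, and −0.25 ± 0.26 after removal. For mRpL33, a short protein of bacterial type, they were 7.71 and 9.38 CPM at CT6 and 10.5 and 6.17 CPM at CT18, a difference of −0.03 ± 0.62, and −0.51 ± 0.43 after removal. The signs of all 3 changed when single libraries were left out. The other short genes had wide errors too, with 0.55 ± 0.76 for mRpL34 and 0.64 ± 0.52 for mRpS21, and 0.12 ± 0.58 and 0.21 ± 0.35 after removal. The longest of the 73, mRpS30 (1746 bases), has a small-subunit name, but its mammalian counterpart sits in the large subunit. It had 0.31 ± 0.26, and 0.38 ± 0.24 after removal, the one gene for which the difference was not lower with the trend removed. Also among the 3 longest, mRpL37 (1183 bases) had 52.0 and 54.8 CPM at CT6 and 80.0 and 61.8 CPM at CT18. With the trend removed it had 59.3 and 52.2 CPM at CT6 and 74.6 and 55.8 CPM at CT18, which overlapped.

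Between the start of the subjective night and the start of the subjective day, CT12 minus CT0, the 73 genes showed no common direction. The value was higher at CT12 for 27 of the 73 (50.8% of all genes), with a median of −0.05 log2 units (0.00 over all genes). With the length trend removed it was higher for 34 (51.8%), with a median of −0.01. On the TPM scale the median was 0.11, with 59 of the 73 higher, beside a median of 0.12 over all genes, of which 67.2% were higher. In edgeR 0 of the 73 and 0 of all genes passed, and 0 of the 73 had an unadjusted p under 0.05, against 2.11% of all genes (2.54% with the trend removed, where it was again 0 of the 73). Both CT12 libraries were above both CT0 libraries for 4 of the 73 (background 12%) and below them for 6 (13.1%), and with the trend removed for 7 (13.5%) and 10 (14%). The 5 genes with the smallest p were mRpS29 (0.29 ± 0.23), mRpL3 (−0.28 ± 0.24), mRpS9 (−0.33 ± 0.30), mRpL36 (−0.36 ± 0.36) and mRpS28 (−0.31 ± 0.31), each with an adjusted p of 1. Their differences after removal were 0.32 ± 0.21, −0.23 ± 0.17, −0.29 ± 0.26, −0.31 ± 0.22 and −0.26 ± 0.19, in the same order, and again none passed edgeR's test (adjusted p = 1). Of these, mRpS29 had CT12 libraries above both CT0 libraries, and mRpL3, a protein near the peptidyl transferase centre, had 73.2 and 72.2 CPM at CT0 and 59.6 and 60.6 CPM at CT12, with no overlap. Without CT0 replicate 1 the median over the 73 was 0.15, and without CT12 replicate 2 it was 0.08, so its sign rested on single libraries.

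The other pairs of times share libraries with those above and are given for their values only. Medians over the 73 genes were −0.19 log2 units for CT6 minus CT0 (7 of 73 higher), 0.16 for CT12 minus CT6 (58 higher), 0.39 for CT18 minus CT12 (71 higher) and −0.33 for CT0 minus CT18 (3 higher). With the trend removed they were −0.05 (23 higher), 0.04 (44 higher), 0.13 (57 higher) and −0.08 (18 higher). No share over all tested genes stands beside these counts, so they are not read as particular to the 73 genes.

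A 24-hour harmonic fitted to the 4 times placed the peak of 69 of the 73 genes between 15 and 21 h, against 32.9% of all genes, and of 43 with the length trend removed, against 28.3%. The median fitted amplitude, from mean to peak, was 0.28 log2 units for the 73 genes and 0.29 for all genes, and 0.11 and 0.24 with the trend removed. The test passed 0 of the 73 and 0 of all genes in edgeR (smallest adjusted p = 0.87 among the 73). At an unadjusted p under 0.05 there were 5, against 5.17% of all genes: mRpL39 (amplitude 0.47 ± 0.14, peak at 17.7 h), mRpS7 (0.46 ± 0.15, 18.5 h), mRpS18A (0.49 ± 0.16, 17.9 h), mRpL11 (0.48 ± 0.16, 18.2 h) and mRpL53 (0.39 ± 0.13, 17.9 h). With the trend removed 1 remained, mRpL39, with an amplitude of 0.34 ± 0.11 and a peak at 17.4 h, against 3.97% of all genes. Before removal the count was 0 without CT6 replicate 1 (background 2.64%), CT18 replicate 1 (2.66%) or CT18 replicate 2 (4.07%), and 17 without CT6 replicate 2 (11.9%). On the log2(TPM + 1) scale, tested with limma, it was 16 (background 4.02%). Any change over the 4 times gave 1 of the 73 at that level (mRpL39; background 3.3%), 0 with the trend removed (background 3.06%), and 0 after adjustment in edgeR. For any change the count was 13 on the log2(TPM + 1) scale (background 3.07%) and 12 without CT6 replicate 2 (9.1%).

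The mitochondrial ribosome genes tko and bonsai, which encode the counterparts of bacterial S12 and S15, fall outside the name rule. The level of tko was 186 and 169 TPM at CT0, 120.1 and 207 TPM at CT6, 218 and 194 TPM at CT12, and 261 and 255 TPM at CT18, and that of bonsai had a mean of 55.0 TPM. The CT18 libraries were the highest pair for both before removal of the length trend. After removal, tko in CT6 replicate 2 (85.1 CPM) lay between the CT18 libraries (80.8 and 86.7 CPM). For bonsai, CT12 replicate 1 (43.6 CPM) was then above both CT18 libraries (42.9 and 43.4 CPM). The differences CT18 minus CT6 were 0.67 ± 0.36 and 0.63 ± 0.28 log2 units, and 0.29 ± 0.24 and 0.29 ± 0.21 with the trend removed, and neither passed edgeR's test (adjusted p = 0.54 and 0.51, and 0.84 and 0.82).

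Set beside other short genes of translation and respiration, the 73 genes gave the following values for CT18 minus CT6. The nuclear genes of oxidative phosphorylation, 66 of which were tested, had a median of 0.46 log2 units with 57 higher, and 0.03 with 36 higher after removal of the trend. The cytoplasmic ribosomal protein genes, 87 tested, had a median of 0.19 with 75 higher, and −0.22 with 7 higher after removal. Genes encoded by mitochondrial DNA, 11 tested, had 0.40 with 11 higher, and −0.15 with 4 higher after removal. Duplicates of this list stood far apart, with median deviations of 0.67 and −0.57 in the CT18 libraries and 0.07 and −0.53 in those of CT6, so that CT18 replicate 2 lay below both CT6 libraries. Median effective lengths were 426, 377 and 281 bases for these lists, all shorter than the 501 bases of the mitochondrial ribosomal genes. None of their genes was called after adjustment, and the differences between the lists were not tested. Per library, cytoplasmic ribosomal protein genes had their highest median deviation in CT6 replicate 2 (0.24), where the mitochondrial ribosomal genes were at −0.03.

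**Figure D5:**
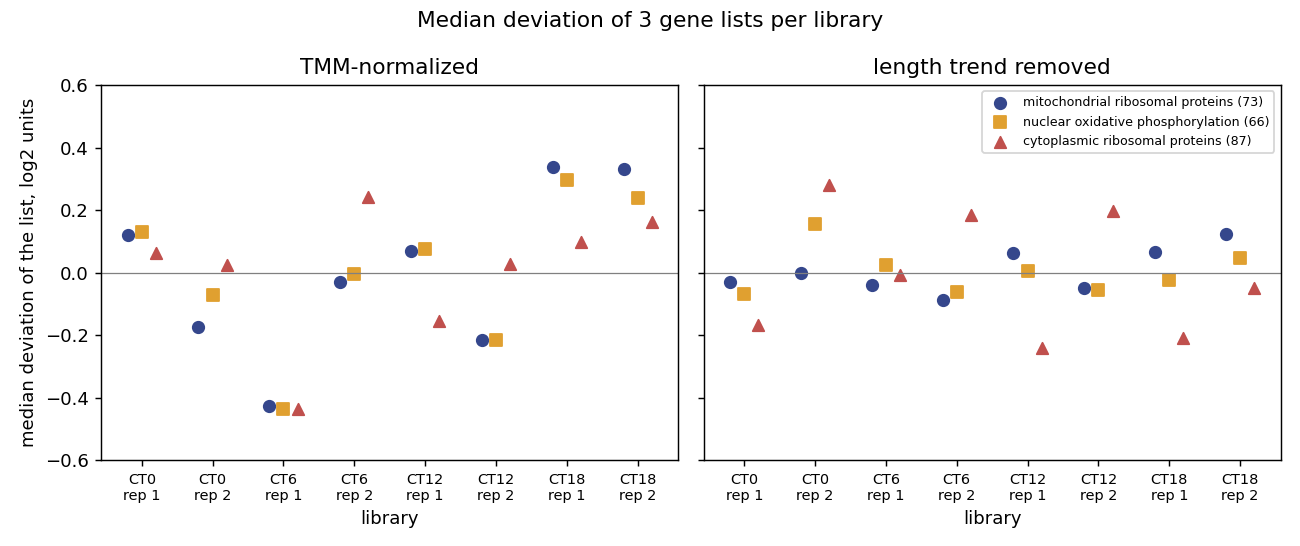
Median deviation in log2 CPM per library of the 73 mitochondrial ribosomal protein genes, 66 nuclear genes of oxidative phosphorylation and 87 cytoplasmic ribosomal protein genes, before (left) and after (right) removal of the length trend. On the left all 3 lists are near −0.43 in CT6 replicate 1; on the right the cytoplasmic list spreads from −0.24 to 0.28, and the mitochondrial ribosomal list from −0.09 to 0.12.

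Genes that work with the mitochondrial ribosome and are longer gave mixed values in CT18 minus CT6, and 0 of them passed edgeR's test after adjustment (background 0%). Of 9 mitochondrial translation factors, 5 were higher at CT18 (median 0.03 log2 units, and −0.10 after removal): mIF3, an initiation factor, had 0.84 ± 0.30 and mEFTu1, an elongation factor, −0.98 ± 0.40. Of 15 mitochondrial aminoacyl-tRNA synthetases, 6 were higher (median −0.10, and 0.02 after removal), with AsnRS-m at 0.74 ± 0.29 and AlaRS-m at −1.53 ± 0.45. Of 11 genes of ribosome assembly and RNA maturation 6 were higher (median 0.06, and 0.11 after removal). Of 6 genes for transcription and upkeep of mitochondrial DNA 6 were higher (median 0.61, and 0.36 with 5 higher after removal), among them mtSSB, the single-stranded DNA binding protein, at 0.72 ± 0.30 and mtTFB2, a transcription factor, at 0.63 ± 0.32. Median effective lengths of these 4 lists ran from 1317 to 1876 bases.

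The genes themselves are compact and crowded. All 73 matched the annotation, with 11 on X, 12 on 2L, 12 on 2R, 17 on 3L, 21 on 3R and 0 on chromosome 4. Their median span was 909 bases, with at most 2 exons in the median gene, against 2927 bases and 4 exons for 8825 tested protein-coding genes. A protein-coding start on the other strand lay within 300 bases upstream for 31 of the 73 (42.5%, against 21.2% of tested protein-coding genes), for instance that of the proteasome gene Prosbeta2 at 285 bases from mRpL39, of HtrA2 at 126 bases from mRpL11 and of Snr1, a Brahma complex gene, at 290 bases from mRpL44. An exon overlapped a gene on the other strand for 42 of the 73 (57.5%, against 34.8%) and on the same strand for 3 (4.11%, against 10.1%). The sources used here do not state whether strand was used in counting, so reads from a shared stretch may not be told apart. Any shared exon base counted as overlap, and the length of the shared stretches was not measured.

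Overlap touched some of the genes with the smallest p. The gene mRpL39 overlaps Zip71B, which had a mean of 1.44 TPM against its own 119 TPM. The partner of mRpL11, CG8461, had 25.8 TPM against 48.8 TPM and a CT18 minus CT6 difference of 0.41 ± 0.46 log2 units (0.07 with the trend removed), and that of mRpL41, CG11808, had 35.1 TPM against 109 TPM and 0.21 ± 0.40 (−0.24). For mRpL53 the same-strand neighbour CG33155 was far higher, at 502 TPM against 63.5 TPM, so mRpL53 is uncertain. No annotated exon overlap was found for mRpS7, mRpS18A, mRpS5 or mRpL12. Over the 30 genes with no overlap the median difference was 0.52 log2 units with 29 higher, and 0.14 with 26 higher after removal.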

How the data were processed

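Polyadenylated RNA of sorted clock neurons was measured in 8 libraries, grouped by the circadian time in the labels. Per the file headers the deposited gene tables have the layout of Salmon and give effective length, TPM and an estimated count for each of 17868 gene symbols. The deposited estimated counts are not normalized, between 12.8% and 15.0% of them per library were not whole, and they were rounded. The deposited TPM values were scaled by the authors within each library, per the file headers, and served for levels between genes. The submitters' processing notes list DRAGEN, Salmon and dm6. Which tool did what, its version, the annotation and the use of strand were not given in the sources used here.

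Rounded counts were filtered with edgeR's filterByExpr (minimum count 10, 9999 of 13499 genes with a count kept), TMM-normalized and fitted with time as a factor (edgeR 4.0.16, R 4.3.3; quasi-likelihood F-test, Benjamini-Hochberg threshold 0.05). The fit had 4 residual degrees of freedom, prior degrees of freedom of 5.43 and a median biological coefficient of variation of 0.31. CPM values before removal of the trend are TMM-normalized without a prior count. CPM values with the trend removed, and the log2 CPM deviations and SDs in the text, carry a prior count of 1. The length trend (lowess, span 0.3, 5766 genes) was removed through the offset. The fit was tested on simulated data. Standard errors carry the spread between libraries, whereas the floor of 3 counts (0.102 to 0.2 CPM) covers counting error only.

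The genes and lists were chosen with earlier results of these data known. Named genes are the 5 with the smallest p in each test where none passed, the 4 highest and 4 lowest in TPM, the 3 shortest and longest, the 3 with the largest and smallest spread, the S18 family, tko and bonsai. Genes counted at 8 or fewer, mRpL19, mRpL35, mRpL17, mRpL43, mRpL44, mRpL16 and the genes of other lists were named after their values were seen. The list of genes encoded by mitochondrial DNA was written by symbol, because the pattern first used matched none. Coordinates and overlaps come from BDGP 6.54 as annotated by Ensembl (release 115), which may differ from the authors' annotation. Alternatives were RLE normalization, no filter, 5 CPM in 2 libraries, DESeq2 1.42.0, limma 3.58.1 (voom, and log2 TPM with pseudocounts of 1 and 0.1), a replicate block, span 0.7 and each library left out. The restriction to genes without exon overlap was added after seeing the data. Figures were drawn with matplotlib 3.10.9. Libraries of control flies and accessibility data were not analysed here.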

Additional observations from a re-analysis of the deposited data

How the results depend on the processing

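No member of the 73 passed the adjusted threshold in the harmonic, in any change, in CT18 minus CT6 or in CT12 minus CT0 under any of the 18 alternatives run for each, although DESeq2 called 33 and 47 genes of the whole table in the harmonic and in CT18 minus CT6, and edgeR without a filter 250 and 192. The median CT18 minus CT6 difference (0.54 log2 units) stayed between 0.50 and 0.57 under other normalizations, filters, tools and TPM scales and over the genes without exon overlap, and moved to 0.14 with the length trend removed at span 0.3 and to 0.119 at span 0.7. Leaving out each library gave 0.351 to 0.73 before removal (lowest without CT6 replicate 1) and 0.0856 to 0.18 after (0.165 without CT6 replicate 1). On the TPM scales limma gave 29 of the 73 an unadjusted p under 0.05 in CT18 minus CT6 (20 in edgeR), 16 in the harmonic (5) and 12 or 13 in any change (1). The shares of all genes on the log2(TPM + 1) scale were 8.26%, 4.02% and 3.07%, in that order (9.65%, 5.17% and 3.3% in edgeR). Other normalizations, filters, tools and the block gave 20 to 23, 4 to 10 and 1 to 6. Under these the shares of all genes were 9.35% to 11.98%, 4.84% to 8.13% and 3.17% to 7.5%. The highest harmonic and any-change values, in counts and in shares, came without a filter. The CT12 minus CT0 median ran from −0.204 to 0.148 over libraries left out, and was 0.109 and 0.11 on the TPM scales. The replicate block gave 0.53 for CT18 minus CT6 and −0.05 for CT12 minus CT0 and called 0 of the 73; deviations of libraries with the same number correlated between −0.07 and 0.23, so the numbers were not taken to pair the libraries.

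Among named genes, 346 values outside the libraries left out kept their sign and 4 turned: mRpL33 in CT18 minus CT6 without a filter (0.0017), mRpL12 with the trend removed (−0.13, and −0.12 at span 0.7) and mRpL34 at span 0.7 (−0.10). With single libraries left out, mRpL36 in CT12 minus CT0 ran from −0.65 to 0.00038, and in CT18 minus CT6 mRpS29 from −0.195 to 0.0816, mRpS9 from −0.29 to 0.27, mRpL33 from −0.47 to 0.30 and mRpS5 from −0.10 to 0.87. The cause was not tested. Depth limits mRpL34 and mRpL33 most, with 1159 and 1958 counts over 8 libraries. There were 2 libraries per time, and the length trend differed between libraries, also between duplicates at CT0, CT6 and CT12. Both CT18 libraries had the strongest bias towards short transcripts. Time of day and that trend therefore cannot be told apart for the 73 genes as a list.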
